A study of Mus musculus with 18 samples.

Results

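Family 2 of the cytochromes P450 holds the Cyp2 genes, haem enzymes of the smooth endoplasmic reticulum. The genes described here are all those named Cyp2, a letter and a number with nothing after it, in both deposited count tables. They number 46 of the 20061 gene names that the tables share. The rule goes by gene name and uses no measured value, but the family was chosen with earlier results of these data known. Another 4 Cyp2 names occur in only 1 of the tables and were left out: Cyp2c23 and Cyp2j7 in the male table, and Cyp2c44 and Cyp2d13 in the female table. RefSeq lists Cyp2c44 as a synonym of Cyp2c23, so that gene was counted under both names and entered no comparison.

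A P450 takes electrons from the reductase Por, and for some reactions from cytochrome b5, splits molecular oxygen at its haem iron and puts 1 oxygen atom into a fat-soluble substrate. Family 2 enzymes in liver act on drugs, solvents, steroids, bile acids, vitamin D and polyunsaturated fatty acids such as arachidonic acid. Most of the genes lie in tandem arrays of close copies, and in rodent liver many are set by sex through the pattern of growth hormone release, by the position of the hepatocyte between portal and central vein, and by the receptors CAR (Nr1i3) and PXR (Nr1i2).

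Liver RNA was sequenced from 18 mice at 8 weeks of age, 1 library per mouse, in 6 groups of 3. C57BL6J males and females received low-dose penicillin (LDP) from birth or no antibiotic, were weaned at 4 weeks onto chow and moved at 6 weeks to a high-fat diet (45% of energy). Germ-free Swiss Webster females were colonised at 3 weeks with the gut microbiota of control or of LDP mice, females according to the series design, were given no antibiotic themselves, and ate the same high-fat diet from a time not given. The mice were LDP males 8, 10 and 11, control males 5, 6 and 7, LDP females 39, 52 and 54, control females 29, 30 and 32, recipients of LDP microbiota 2, 5 and 8, and recipients of control microbiota 1, 3 and 7. In every list of values below the mice follow this order. The penicillin dose is not given in the sources used here, and neither are cages, litters or the number of microbiota donors.

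Values are CPM, counts relative to the TMM-scaled size of the library. Male libraries held 70336366 to 74418889 counts, and female libraries 17937005 to 28646168. Males and females are in separate tables, so sex and table cannot be told apart and levels were not tested across them. All 8 hepatocyte markers were detected in every group, with a summed level of 84610 to 112075 CPM in males and 145317 to 206375 CPM in females and recipients. The male groups did not overlap in this sum, with 102033 to 112075 CPM with LDP and 84610 to 97537 CPM without. Between them 4 markers had positive and 4 negative estimates. Alb was higher with LDP (log2 difference 0.27, edgeR unadjusted p = 0.0326, adjusted p = 0.920). In whole liver, fewer cells of a type and less RNA per cell cannot be told apart.

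The 46 genes are all annotated as protein coding in GENCODE M21 (GRCm38, the mm10 build). Of these, 14 Cyp2c genes lie in 1 array on chromosome 19 (39007019 to 40187333), 8 Cyp2d genes on chromosome 15 (82370527 to 82794294) and 7 Cyp2j genes on chromosome 4 (96027534 to 96664154). Chromosome 7 holds 15 genes, among them the mixed array of Cyp2s, Cyp2b, Cyp2g, Cyp2a, Cyp2f and Cyp2t genes. Cyp2u1 is on chromosome 3 and Cyp2w1 on chromosome 5. Copies within an array are close enough to trade reads. Of the 50-base words in the transcripts of Cyp2c40, 60.3% also occurred in another gene's transcripts, most of them in Cyp2c69, and the share was 54.3% for Cyp2c69, 52.8% for Cyp2c67 and 43.3% for Cyp2c68. It was 38.0% for Cyp2a4, 37.0% for Cyp2a5, 37.2% for Cyp2d11 and 35.8% for Cyp2d10. For other genes named below it was 30.1% (Cyp2c37), 27.3% (Cyp2b13), 25.7% (Cyp2c54), 21.8% (Cyp2d9), 20.2% (Cyp2a22) and 20.1% (Cyp2a12). It was 12% for Cyp2c39 and 7.4% for Cyp2c38, and 0 for Cyp2c70, Cyp2f2, Cyp2r1, Cyp2s1 and Cyp2j9. How the authors' counting treated reads that match several genes is not given in the sources used here. The values of genes that share words are therefore uncertain as to the copy, and the first 8 of these genes have the largest shares.

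Levels between genes were compared as CPM per kilobase of the gene length deposited in the male table. Cyp2e1, the ethanol- and acetone-oxidising enzyme of pericentral hepatocytes, led in every arm, with 5305 to 7248 CPM per kilobase in the 6 males (median 6827), 4997 to 8547 in the 6 C57BL6J females (median 7269) and 7328 to 9628 in the 6 recipients (median 8327). It alone held 50 to 58.6% of the family's counts in a library. The family as a whole took 1.81 to 2.25% of all counts in males, 1.91 to 2.69% in C57BL6J females and 2.51 to 3.00% in recipients. The genes next in order differed between the arms.

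In males the second gene was Cyp2d9, a male-type steroid hydroxylase, with a median of 1017 CPM per kilobase. It was followed by Cyp2d26 at 521, Cyp2f2, a periportal enzyme that activates naphthalene, at 518, Cyp2d10 at 351, Cyp2a12, which hydroxylates bile acids and steroids, at 323, Cyp2j5, an arachidonic acid epoxygenase, at 300.3, and Cyp2c70, which makes the muricholic acids of mouse bile, at 245. The ranges of Cyp2d26 (450.5 to 562) and Cyp2f2 (488 to 562) overlapped, as did those of each neighbouring pair among Cyp2d10 (307 to 391), Cyp2a12 (315 to 361), Cyp2j5 (285 to 327) and Cyp2c70 (213 to 310.1), so the order of neighbours is not beyond the spread between mice. Cyp2a12 was above Cyp2c70 without overlap. Cyp2d9, at 807 to 1145, lay above all of them in every male.

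In C57BL6J females the second gene was Cyp2d26 with a median of 713 CPM per kilobase (614 to 807). Then came the steroid hydroxylase Cyp2a4 at 499, Cyp2a12 at 419, the coumarin and nicotine hydroxylase Cyp2a5 at 415, the arachidonic acid hydroxylase Cyp2c37 at 398, Cyp2d10 at 369 and Cyp2f2 at 369. Cyp2a5 ranged from 169.7 to 709.9 and overlapped with all of these. In recipients Cyp2d26 (median 602), Cyp2c39 (565) and Cyp2f2 (539) took the places after Cyp2e1, with overlapping ranges, followed by Cyp2b9 at 435, Cyp2d10 at 382, Cyp2c70 at 358 and Cyp2c37 at 318. Cyp2c39, a P450 known to oxidise retinoic acid and arachidonic acid, thus had rank 3 in recipients and was outside the first 8 in both C57BL6J arms.

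**Figure D1:**
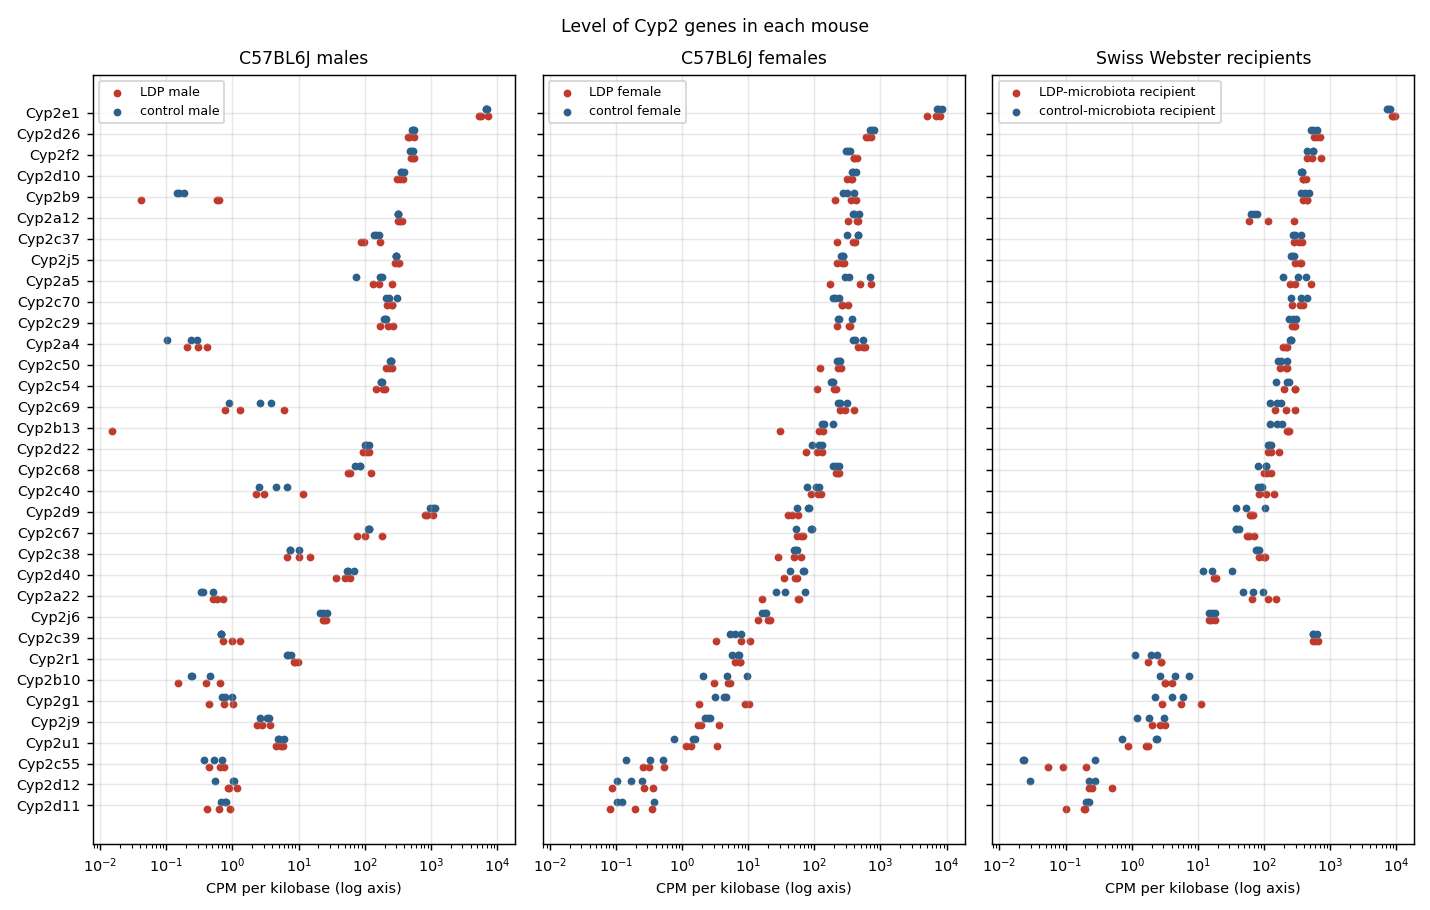
Level of the 34 Cyp2 genes with a group mean of at least 1 CPM, in CPM per kilobase on a log axis, in males, C57BL6J females and recipients. Each point is a mouse, red for LDP or its microbiota and blue for control, and values of 0 are not drawn. Each gene has the same row in all panels. Cyp2e1 is the highest gene in every mouse, and Cyp2c39 lies at low values in both C57BL6J panels and at high values in recipients.

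At the other end, 16 of the 46 genes had a mean under 1 CPM in males, 15 in C57BL6J females and 15 in recipients. No library of an arm held more than 10 counts for 9 of them in males, 11 in C57BL6J females and 11 in recipients. Cyp2w1, known mainly from fetal gut and tumours, had 0 counts in all 18 livers, which allows at most 0.0427 CPM in a male and 0.167 CPM in a female library (3 counts, counting error only). Cyp2b19, Cyp2b23, Cyp2c65, Cyp2c66, Cyp2j11, Cyp2j12 and Cyp2j13 were at no more than 0.139 CPM in any mouse.

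Some genes were abundant in one table and nearly silent in the other. Cyp2b13 had 0.0285 CPM in LDP male 8 and 0 in the other males, and 57 to 359.9 CPM in C57BL6J females. Cyp2b9 was at 0.0788 to 1.16 CPM in males and 379 to 796 CPM in C57BL6J females, and Cyp2a4 at 0.178 to 0.712 against 661 to 1008 CPM. Cyp2d9 went the other way, with 1332 to 1890 CPM in males and 65.8 to 135 CPM in C57BL6J females. These genes are textbook examples of sex-biased liver P450s; here the sexes come from tables counted separately, so the values are set side by side without a test.

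Among the comparisons tested with edgeR, all 12 adjusted calls in the family lay between the recipients and the C57BL6J females. Recipients had 85.2-fold more Cyp2c39, and also more Cyp2c38, Cyp2f2 and Cyp2c70. They had less Cyp2a12, Cyp2r1, Cyp2d40, Cyp2a4, Cyp2c68, Cyp2c69, Cyp2c67 and Cyp2c55, by 1.4- to 4.00-fold. The mean of the 6 recipients was set against that of the 6 C57BL6J females in 1 edgeR fit of all 12 female libraries. Mouse stock, the germ-free start, colonisation at 3 weeks, antibiotic exposure and diet schedule differ together between these arms and cannot be told apart. The build listed is mm10 for both stocks, and whether Swiss Webster sequence differences affected the counting of these genes was not tested.

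Of the 34 Cyp2 genes tested, 12 passed an adjusted p of 0.05 (35.3%), while 26.7% of all 13295 genes tested passed. Of the 12, 4 were higher in recipients (11.8%, against 12.6% of all genes) and 8 lower (23.5%, against 14.2%). The ranges of the arms did not overlap for 7 of the 34 (20.6%, against 13.0% of all genes). A difference of at least 1 on the log2 scale was found for 8 (23.5%, against 7.66% of all genes). The median absolute log2 difference was 0.37 for the 34 and 0.20 for all genes, and the signed median was -0.06 and 0.004. The other 12 genes were too low to be tested.

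Cyp2c39 stood at 19.2, 14.0 and 5.83 CPM in LDP females and 9.77, 14.1 and 11.5 CPM in control females. In recipients of LDP microbiota it stood at 1177, 1056 and 982 CPM, and in recipients of control microbiota at 1130, 996 and 998 CPM. Every recipient was far above every C57BL6J female, and the recipient groups lay on top of each other. The log2 difference was 6.41 (SE 0.267, edgeR adjusted p = 1.51e-08), and it kept to 6.24 to 6.61 when any 1 of the 12 mice was left out. In C57BL6J males, in the other table, Cyp2c39 was at 1.21 to 2.38 CPM.

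Cyp2c38, the neighbour of Cyp2c39 on the opposite strand and likewise an arachidonic acid oxidase, was at 183, 141 and 80.7 CPM in LDP females and 155, 140.0 and 144 CPM in control females. Recipients of LDP microbiota had 289, 292 and 238 CPM and recipients of control microbiota 218, 223 and 245 CPM. The arms did not overlap here either, but the log2 difference was 0.83 (SE 0.154, edgeR adjusted p = 0.00180). Cyp2c29, the next gene on the other side of Cyp2c38, did not pass, with a log2 difference of -0.05 (SE 0.144, edgeR adjusted p = 0.813).

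The RefSeq promoters of Cyp2c38 and Cyp2c39 (GRCm38.p6, 250 bases before to 50 after the annotated start) are shown because these neighbours share most of their promoter letters and differ so much in size of change. They are Cyp2c38 at chr19:39463026-39463325 (- strand) and Cyp2c39 at chr19:39510572-39510871 (+ strand), each read 5′ to 3′ in the direction of its gene. Capitals mark the TATA box motif TATAAA and the forkhead motif TGTTTAC, searched on both strands.
Cyp2c38: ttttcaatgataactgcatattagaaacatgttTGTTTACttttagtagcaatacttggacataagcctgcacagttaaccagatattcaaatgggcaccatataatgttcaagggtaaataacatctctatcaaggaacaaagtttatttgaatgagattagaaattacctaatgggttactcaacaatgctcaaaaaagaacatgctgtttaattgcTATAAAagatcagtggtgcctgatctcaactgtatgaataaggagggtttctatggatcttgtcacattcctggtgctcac
Cyp2c39: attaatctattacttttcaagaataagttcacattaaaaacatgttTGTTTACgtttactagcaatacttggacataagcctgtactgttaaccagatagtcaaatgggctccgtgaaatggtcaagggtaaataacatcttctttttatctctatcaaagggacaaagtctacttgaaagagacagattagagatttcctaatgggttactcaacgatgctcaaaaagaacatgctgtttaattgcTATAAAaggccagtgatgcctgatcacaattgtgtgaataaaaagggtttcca
The promoters were identical at 239 of 288 aligned columns (83.0%), and both held TATAAA and TGTTTAC. A promoter sequence was found for 40 of the 46 genes. TATAAA on either strand was in 21 of these 40 (52.5%) and in 13.6% of all 32851 promoters in the RefSeq table, and TGTTTAC was in 3 (7.50%, the third being Cyp2j5) against 3.65%. The sequences are those of the reference strain. Swiss Webster alleles were not analysed here, so whether the promoter of the recipients has these letters is not known.

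Further along the same array, Cyp2c68, Cyp2c69, Cyp2c67 and Cyp2c40 form a block of near copies on the minus strand. Cyp2c68 was at 360.4, 396 and 414 CPM in LDP females and 407, 369 and 335 CPM in control females, against 191, 171 and 222 CPM in recipients of LDP microbiota and 185, 188 and 140.2 CPM in recipients of control microbiota. The arms did not overlap, and the log2 difference was -1.06 (SE 0.100, edgeR adjusted p = 8.83e-06). Cyp2c69 had a log2 difference of -0.62 (SE 0.181, edgeR adjusted p = 0.0239) and Cyp2c67 of -0.49 (SE 0.125, edgeR adjusted p = 0.0117), with overlapping arms in both. The call for Cyp2c69 was lost without control recipient 3, control female 29 or LDP female 52, where its log2 difference was -0.56, -0.55 and -0.51. Cyp2c40, which makes hydroxylated arachidonic acids, did not pass, with a log2 difference of -0.09 (SE 0.138, edgeR adjusted p = 0.687).

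Because these copies share sequence, reads may have been assigned to the wrong one of them, so the 4 were also summed. The sum was 1019 to 1467 CPM in C57BL6J females (median 1179) and 661 to 1107 CPM in recipients (median 775), with 1 recipient inside the range of the C57BL6J females. Their promoters are also close: Cyp2c68 and Cyp2c69 were identical at 277 of 299 aligned columns (92.6%), Cyp2c40 and Cyp2c69 at 98.9%, and Cyp2c40 and Cyp2c68 at 93.3%. The promoters of Cyp2c68 at chr19:39741052-39741351 (- strand) and Cyp2c69 at chr19:39886720-39887019 (- strand) stand for the block, with the HNF4-type motif CAAAGTCCA and TATAAA in capitals.
Cyp2c68: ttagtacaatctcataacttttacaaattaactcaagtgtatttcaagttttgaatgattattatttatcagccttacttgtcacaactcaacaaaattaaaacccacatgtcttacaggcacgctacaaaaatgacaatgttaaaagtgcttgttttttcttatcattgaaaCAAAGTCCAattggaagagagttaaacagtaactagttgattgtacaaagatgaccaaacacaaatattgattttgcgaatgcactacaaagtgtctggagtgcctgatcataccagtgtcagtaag
Cyp2c69: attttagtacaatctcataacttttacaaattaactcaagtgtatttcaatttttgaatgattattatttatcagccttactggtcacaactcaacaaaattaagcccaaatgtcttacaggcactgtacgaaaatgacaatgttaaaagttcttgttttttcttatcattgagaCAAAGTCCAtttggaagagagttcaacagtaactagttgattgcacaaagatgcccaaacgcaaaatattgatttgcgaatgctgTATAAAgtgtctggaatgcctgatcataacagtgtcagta
CAAAGTCCA on either strand was in 6 of the 40 promoters (15%), those of Cyp2c40, Cyp2c65, Cyp2c67, Cyp2c68, Cyp2c69 and Cyp2c70, and in 0.475% of all promoters. TATAAA was in the windows of Cyp2c69, Cyp2c67 and Cyp2c40 and not in that of Cyp2c68. The 4 genes of the block thus share the first motif. Whether their differences between the arms are unlike each other was not tested, and neither was any part of the motif.

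At the far end of the array, Cyp2c70 was at 525, 639 and 522 CPM in LDP females, 408, 385 and 462 CPM in control females, 694, 519.6 and 775 CPM in recipients of LDP microbiota and 724, 886 and 513 CPM in recipients of control microbiota. The arms overlapped, and the recipients were higher by 0.50 on the log2 scale (SE 0.137, edgeR adjusted p = 0.0164). At the near end, Cyp2c55, a fatty acid hydroxylase of gut and liver, was lower by 1.60 in log2 (SE 0.519, edgeR adjusted p = 0.0370) on 5 to 27 counts per C57BL6J female and 1 to 11 per recipient. That call was lost in 8 of the 12 fits that left out 1 mouse, with adjusted p up to 0.107. Cyp2c37, Cyp2c50 and Cyp2c54, which lie between the block and Cyp2c70, had log2 differences of -0.21, -0.15 and 0.37, none of which passed.

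**Figure D2:**
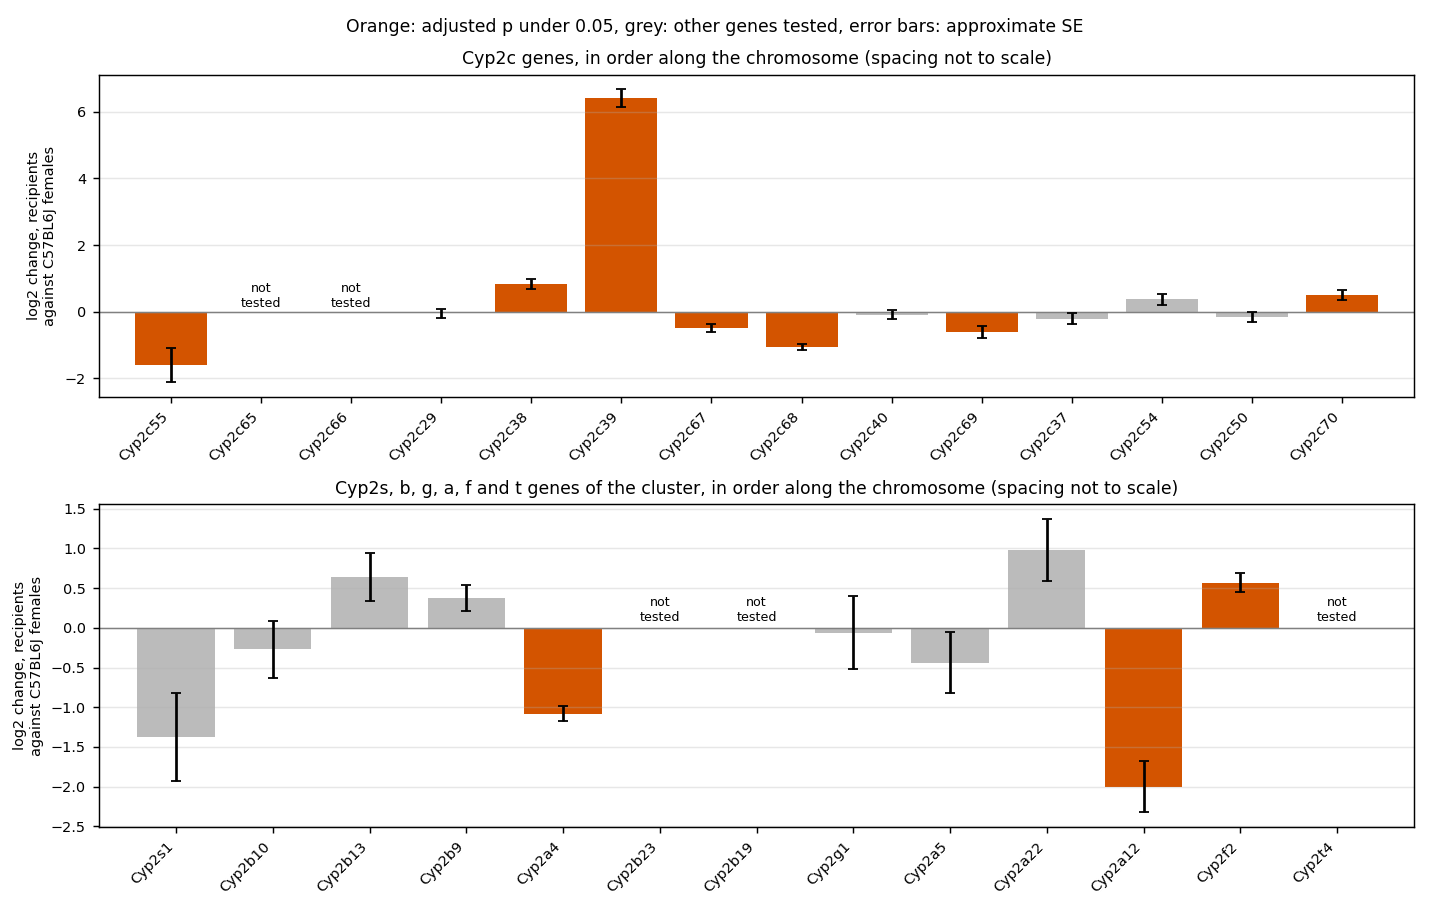
Log2 difference between recipients and C57BL6J females for the Cyp2c array (upper panel) and the Cyp2s, b, g, a, f and t array (lower panel), with genes in chromosome order and spacing not to scale. Bars are estimates with approximate SE, orange where the adjusted p is under 0.05; Cyp2c39 stands out at 6.41 while its neighbours Cyp2c38 and Cyp2c67 are at 0.83 and -0.49, and Cyp2a12 is the lowest of the lower panel at -2.0.

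In the chromosome 7 array the change of largest size was in Cyp2a12. It was at 768, 725 and 540.4 CPM in LDP females and 636, 662 and 793 CPM in control females. Recipients of LDP microbiota had 96.6, 478 and 189 CPM and recipients of control microbiota 129, 117 and 104 CPM. All recipients were below all C57BL6J females, although recipient 5 of LDP microbiota came close. The log2 difference was -2.0 (SE 0.321, edgeR adjusted p = 0.00126), and it ranged from -2.41 to -1.80 when mice were left out in turn.

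Cyp2a22, the closest copy of Cyp2a12, was at 128, 131 and 35.5 CPM in LDP females and 79.7, 59.4 and 163 CPM in control females, and at 147, 335 and 252 CPM and 151, 106 and 216 CPM in the recipients. Its log2 difference of 0.98 (SE 0.390) did not pass (edgeR adjusted p = 0.0930). As 20.1% of the words of Cyp2a12 occur in Cyp2a22, the pair was also summed: it came to 576 to 956 CPM in C57BL6J females (median 789) and 223 to 813 CPM in recipients (median 300.0), with recipient 5 of LDP microbiota alone inside the range of the C57BL6J females.

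Cyp2a4 was at 795, 931 and 1008 CPM in LDP females, 706, 661 and 918 CPM in control females, 384, 372 and 332 CPM in recipients of LDP microbiota and 432, 432 and 419 CPM in recipients of control microbiota. The arms did not overlap, and the log2 difference was -1.08 (SE 0.0988, edgeR adjusted p = 6.40e-06). Cyp2a5, its near copy, ranged from 352 to 1472 CPM in C57BL6J females and from 399 to 1051 CPM in recipients. The difference of -0.44 for Cyp2a5 (SE 0.383) did not pass (edgeR adjusted p = 0.435), and the difference between the changes of these copies was not tested. Summed, the pair was at 1299 to 2351 CPM in C57BL6J females and 831 to 1423 CPM in recipients, with overlap.

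The promoters of these 4 genes are shown because each pair is nearly identical in letters. They are Cyp2a4 at chr7:26306942-26307241 (+ strand), Cyp2a5 at chr7:26835089-26835388 (+ strand), Cyp2a12 at chr7:27028840-27029139 (+ strand) and Cyp2a22 at chr7:26939337-26939636 (- strand), with TATAAA in capitals.
Cyp2a4: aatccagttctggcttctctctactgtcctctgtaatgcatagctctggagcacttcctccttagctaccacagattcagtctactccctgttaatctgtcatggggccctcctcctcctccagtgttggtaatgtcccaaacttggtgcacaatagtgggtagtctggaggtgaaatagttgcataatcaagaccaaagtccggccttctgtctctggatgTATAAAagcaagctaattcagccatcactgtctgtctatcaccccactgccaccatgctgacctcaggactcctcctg
Cyp2a5: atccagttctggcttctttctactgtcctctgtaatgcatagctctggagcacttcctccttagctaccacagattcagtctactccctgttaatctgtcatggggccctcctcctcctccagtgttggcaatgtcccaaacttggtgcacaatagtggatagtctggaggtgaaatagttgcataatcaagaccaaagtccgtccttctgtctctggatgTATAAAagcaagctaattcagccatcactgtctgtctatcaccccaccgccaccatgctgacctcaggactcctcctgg
Cyp2a12: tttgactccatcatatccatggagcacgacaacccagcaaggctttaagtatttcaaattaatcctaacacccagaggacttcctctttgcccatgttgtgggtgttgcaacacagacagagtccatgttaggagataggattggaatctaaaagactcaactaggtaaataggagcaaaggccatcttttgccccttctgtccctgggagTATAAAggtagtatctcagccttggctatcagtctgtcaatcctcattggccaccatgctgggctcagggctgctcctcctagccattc
Cyp2a22: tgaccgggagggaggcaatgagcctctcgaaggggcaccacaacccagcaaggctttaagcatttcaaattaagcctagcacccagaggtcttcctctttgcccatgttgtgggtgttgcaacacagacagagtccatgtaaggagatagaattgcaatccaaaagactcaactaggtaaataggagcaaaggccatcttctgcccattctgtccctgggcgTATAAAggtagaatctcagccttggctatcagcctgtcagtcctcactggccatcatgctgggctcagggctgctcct
Cyp2a4 and Cyp2a5 were identical at 294 of 299 aligned columns (98.3%), and Cyp2a12 and Cyp2a22 at 259 of 289 (89.6%). Each of the 4 held TATAAA and none held CAAAGTCCA or TGTTTAC in this window. Cyp2b9 and Cyp2b13, with promoters identical at 99.3% of columns, had log2 differences of 0.38 (edgeR adjusted p = 0.108) and 0.64 (edgeR adjusted p = 0.136).

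Cyp2f2, the last liver-abundant gene of that array, was at 798, 818 and 893 CPM in LDP females and 604, 696 and 658 CPM in control females, and at 1064, 914 and 1476 CPM and 889, 1129 and 1117 CPM in the recipients. Only control recipient 1 fell within the range of the C57BL6J females. The recipients were higher by 0.57 in log2 (SE 0.117, edgeR adjusted p = 0.00300). Gm15883 overlaps Cyp2f2 on the other strand, and strandedness of the libraries is not given.

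Outside the arrays of Cyp2c and Cyp2a, the vitamin D hydroxylase Cyp2r1 was at 12.2, 12.2 and 10.5 CPM in LDP females and 9.32, 11.9 and 11.3 CPM in control females. Recipients of LDP microbiota had 4.46, 4.49 and 2.84 CPM and recipients of control microbiota 3.94, 3.23 and 1.86 CPM. There was no overlap, and the log2 difference was -1.71 (SE 0.168, edgeR adjusted p = 1.16e-05). Cyp2d40 was at 63.0, 58.5 and 40.0 CPM in LDP females, 80.8, 78.2 and 49.2 CPM in control females, and 13.8 to 38.7 CPM in recipients. The arms of Cyp2d40 were next to each other without overlap, and the log2 difference was -1.45 (SE 0.241, edgeR adjusted p = 0.00143). The other 5 Cyp2d genes tested had log2 differences between -0.23 and 0.23, and the 3 Cyp2j genes tested between -0.14 and 0.21, none of them past the threshold. Cyp2e1 differed by 0.22 (SE 0.110, edgeR adjusted p = 0.157).

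**Figure D3:**
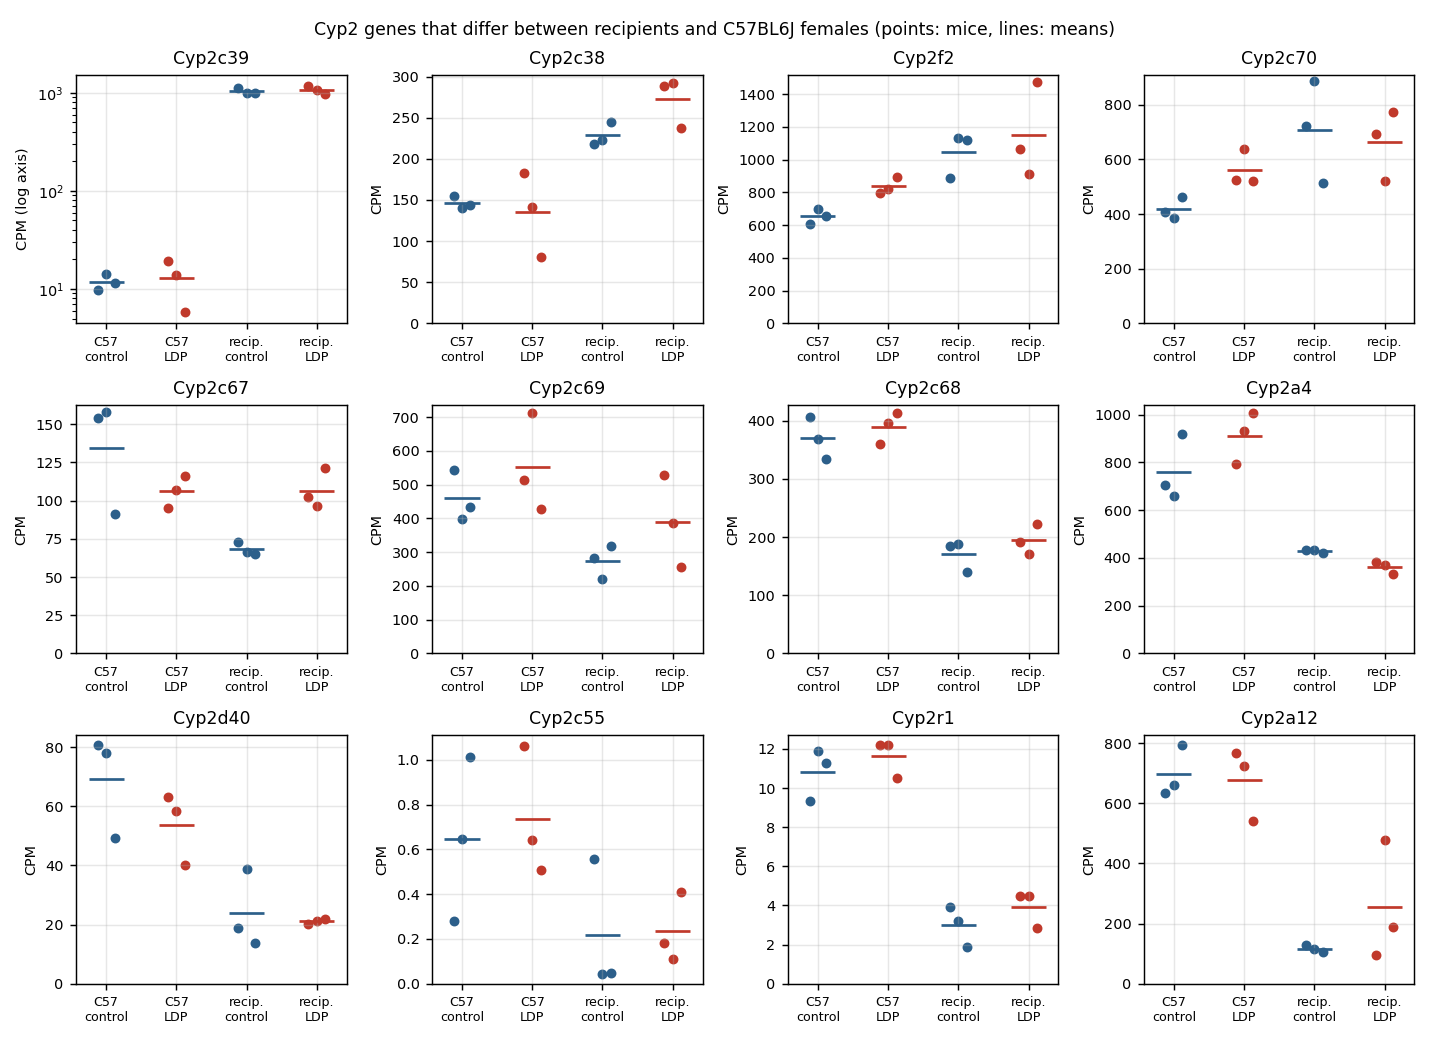
CPM per mouse (points) and group means (lines) of the 12 Cyp2 genes with an adjusted p under 0.05 between recipients and C57BL6J females, red for LDP or its microbiota and blue for control. The axis of Cyp2c39 is logarithmic and the others start at 0; in Cyp2c39, Cyp2c38, Cyp2c68, Cyp2a4, Cyp2d40, Cyp2r1 and Cyp2a12 no recipient falls within the range of the C57BL6J females.

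Genes around the family moved between the same arms. Of 12 female-biased liver genes outside the family, 6 were higher and 1 lower in recipients at an adjusted p of 0.05, among them the P450s Cyp3a16, with a log2 difference of 4.48 (SE 0.822), and Cyp3a41a, with 2.82 (SE 0.481). Among the 7 family members known as female-biased, Cyp2c39 was higher and Cyp2a4 and Cyp2c69 were lower, so these did not move in 1 direction. The 8 growth hormone pathway genes gave no adjusted call, and a median of -0.11. Of 9 electron donors and haem enzymes tested, Alad was higher by 1.08 in log2, while Por and Cyb5r3 were lower by 0.39 and 0.50 (edgeR adjusted p = 0.0465 and 0.00385). Among 8 xenobiotic receptors and partners, Ppara and Arnt were lower, and Nr1i3 and Nr1i2 did not pass.

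Of 10 liver transcription factors, the clock-output factors Dbp and Tef were lower, by 0.82 and 0.64 in log2, and Hnf4a and Foxa2 did not pass. Among 10 pericentral markers Rhbg and Cyp1a2 were higher, and their summed level was 2696 to 4046 CPM in recipients and 1952 to 3577 CPM in C57BL6J females. Of 8 hepatocyte markers only Serpina1c passed, lower in recipients. Bile duct and mesothelium markers were lower, 2 of 8 with an adjusted p under 0.05, with a sum of 27.5 to 36.4 against 35.8 to 80.2 CPM. The 12 endothelial, stellate and Kupffer markers, 11 of them tested, had 1 higher and 4 lower, with sums of 578 to 790.3 against 706 to 891 CPM. The part of these genes and cells in the Cyp2 differences was not tested.

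Recipients of LDP microbiota were next set against recipients of control microbiota, which asks whether the transferred community alone was followed by a different liver. No Cyp2 gene passed an adjusted p of 0.05 in edgeR (0 of 31 tested, against 0.00782% of all 12780 genes), while 3 had an unadjusted p under 0.05 (9.68%, against 5.11% of all genes). Those were Cyp2c67, Cyp2b13 and Cyp2j5, each higher with LDP microbiota, a direction with an unadjusted p under 0.05 in 2.25% of all genes. The estimate was positive for 24 of the 31 (77.4%, against 48.4% of all genes), with a median of 0.14 against -0.008. Groups did not overlap for 6 genes (19.4%, against 11.8% of all genes), 5 of them higher (16.1%, against 6.74%) and 1 lower (3.23%, against 5.05%). The genes were measured in the same livers, so these counts are not independent observations.

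Cyp2c67 was at 102, 96.2 and 121 CPM with LDP microbiota and 72.8, 66.1 and 65.3 CPM with control microbiota. All 3 LDP recipients were above all 3 controls, and the log2 difference was 0.64 (SE 0.123, edgeR unadjusted p = 5.71e-04, adjusted p = 0.777). Cyp2b13, a female-type P450, was at 430.4, 455 and 421 CPM against 347, 292 and 232 CPM, with a log2 difference of 0.58 (SE 0.152, edgeR unadjusted p = 0.00435, adjusted p = 0.846). DESeq2 called Cyp2b13 at an adjusted p of 0.0274, and gave Cyp2c67 an unadjusted p of 9.50e-06 and no adjusted one. The same tool made 28 adjusted calls over all genes fitted (0.219%), against 1 in edgeR. It gave some genes, among them Cyp2c67 and Cyp2a22, no adjusted p, so its adjustment covered fewer genes than were fitted. With the spread shared by 12 libraries in edgeR, Cyp2b13 lost its unadjusted call (log2 difference 0.58, adjusted p = 0.712), while Cyp2c67 and Cyp2j5 had one. The epoxygenase Cyp2j5 was at 807, 864 and 692 CPM against 659, 613 and 609 CPM, with a log2 difference of 0.32 (SE 0.125, edgeR unadjusted p = 0.0312, adjusted p = 0.846).

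Cyp2e1 stood at 16128, 17591 and 15850 CPM with LDP microbiota and 13388, 13918 and 14576 CPM with control microbiota. The groups did not overlap, but the log2 difference of 0.23 (SE 0.117) did not pass even before adjustment (edgeR unadjusted p = 0.0781). With it the family's share of all counts was 2.62 to 3.00% against 2.51 to 2.61%. Cyp2a4 ran the other way without overlap, at 384, 372 and 332 CPM against 432, 432 and 419 CPM (log2 difference -0.25, SE 0.113). Unadjusted calls came to 5 without control recipient 7 (15.6%, against 7.32% of all genes in that fit) and 6 without LDP recipient 8 (18.8%, against 4.39%), with Cyp2c67 and Cyp2b13 among them both times. The estimate of largest size was that of Cyp2a12, 1.12 (SE 0.546), and it rests on recipient 5, at 478 CPM, and recipient 8, at 189 CPM, while recipient 2, at 96.6 CPM, was below all controls.

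Of 9 electron donors and haem enzymes tested, 4 had an unadjusted p under 0.05 in recipients, all higher with LDP microbiota and none with an adjusted call: Alas1, Cyb5r3, Pgrmc1 and Alad. Alas1, the first and rate-limiting enzyme of haem synthesis, was at 1024, 1003 and 592 CPM against 433, 449.8 and 453 CPM, without overlap, with a log2 difference of 0.96 (SE 0.201, edgeR unadjusted p = 0.00106, adjusted p = 0.846). The 10 inflammation genes tested, a mixed list of receptors, signalling genes and acute phase genes, all had negative estimates, with a median of -0.44 and 3 unadjusted calls (Lcn2, Il6ra and Il1r1). Summed pericentral markers were 2696 to 4046 CPM with LDP and 2825 to 3621 CPM with control microbiota. Their part in the Cyp2 values was not tested.

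In C57BL6J females, LDP from birth gave no adjusted call among 33 Cyp2 genes in edgeR, as for all 12914 genes tested, of which 0% passed. DESeq2 called no Cyp2 gene and 0.116% of all genes. An unadjusted p under 0.05 was found for 4 Cyp2 genes (12.1%, against 4.51% of all genes), namely Cyp2c70, Cyp2f2 and Cyp2s1 higher (9.09%, against 2.69%) and Cyp2d9 lower (3.03%, against 1.82%). Groups did not overlap for 4 genes (12.1%, against 9.15%), Cyp2c70, Cyp2f2 and Cyp2s1 higher (background 4.70%) and Cyp2d10 lower (background 4.44%). The median log2 difference was -0.03, and 0.003 for all genes.

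For Cyp2c70 the values given above put all 3 LDP females (522 to 639 CPM) over all controls (385 to 462 CPM), with a log2 difference of 0.43 (SE 0.134, edgeR unadjusted p = 0.0101, adjusted p = 0.999). Cyp2f2 likewise lay at 798 to 893 against 604 to 696 CPM, a log2 difference of 0.36 (SE 0.119, edgeR unadjusted p = 0.0138, adjusted p = 0.999). Cyp2d9, low in females, was at 94.2, 76.0 and 65.8 CPM with LDP and 135, 132 and 89.1 CPM without, and LDP female 39 and control female 32 overlapped (log2 difference -0.59, SE 0.186, edgeR unadjusted p = 0.0124, adjusted p = 0.999). Cyp2s1, a P450 mainly of epithelia outside the liver, was at 1.06, 0.556 and 0.647 CPM against 0.335, 0.496 and 0.276 CPM, on 6 to 27 counts per library (log2 difference 1.04, SE 0.400, edgeR unadjusted p = 0.0285, adjusted p = 0.999).

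LDP female 54 stood apart from the other LDP females in much of the family. Its family share was 1.91%, while the other C57BL6J females had 2.42 to 2.69%. Cyp2e1 was at 9130 CPM in it and 12812 to 15615 CPM in the other 5 C57BL6J females, Cyp2b13 at 57 against 224 to 359.9 CPM, and Cyp2a5 at 352 against 593 to 1472 CPM. Cyp2c37, Cyp2c50 and Cyp2c54 were also lowest in this mouse, at 399, 359 and 194 CPM. Other genes were highest in it, among them Cyp2a4 at 1008 CPM, Cyp2f2 at 893 CPM, Cyp2c68 at 414 CPM and Cyp2u1 at 7.81 CPM. Its pericentral markers outside the family summed to 1952 CPM, the lowest of the 12 female libraries, with Cyp1a2 at 212 CPM and Glul at 522 CPM. Nr1i3, which is not in that list but among the xenobiotic receptors, was at 143 CPM in this mouse. The part of these genes in the low Cyp2 values was not tested.

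Without female 54, 8 Cyp2 genes had an unadjusted p under 0.05 (24.2%, against 4.21% of all genes in that fit) and none an adjusted one (0% of all genes). Female 54 was named for its Cyp2 values, so the higher share without it is no independent result on the family. Cyp2g1, an olfactory P450 also found in female liver, then had a log2 difference of 1.29 (edgeR unadjusted p = 4.62e-05, adjusted p = 0.388). It was at 19.3, 16.8 and 3.38 CPM with LDP and 5.86, 7.89 and 8.47 CPM without, so the third LDP female was below all controls. With all mice its difference was 0.84 (SE 0.620). Without control female 29 the count of unadjusted calls was 2, Cyp2c70 and Cyp2f2 (5.88%, against 3.28%).

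Markers of other cells also differed between LDP and control females. Of 8 bile duct and mesothelium markers, 7 had positive estimates (median 0.52) and 3 of those, all mesothelial, an unadjusted p under 0.05 in edgeR: Gpm6a (1.21), Upk3b (1.54) and Msln (1.38). The list summed to 35.8 to 80.2 CPM with LDP and 35.9 to 49.1 CPM without. LDP female 39, with the highest Cyp2s1, also had the highest Gpm6a, Upk3b and Msln, at 6.43, 5.65 and 5.92 CPM. Of the 11 endothelial, stellate and Kupffer markers tested, 5 had positive estimates, and Col3a1 (1.10), Col1a1 (1.21), Lyve1 (0.75) and Lrat (0.31) an unadjusted p under 0.05. Col3a1 was at 84.6 to 108 CPM with LDP and 38.6 to 51.4 CPM without, and that list summed to 791 to 891 against 706 to 857 CPM. No marker of either list had an adjusted call, and none was at 0 in all mice of a group. Their part in the Cyp2 values was not tested.

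In C57BL6J males, none of the 36 Cyp2 genes tested passed an adjusted p of 0.05 in edgeR, against 0.00648% of all 15438 genes, and DESeq2 called none (0.272% of all genes). There were 3 with an unadjusted p under 0.05 (8.33%, against 5.23% of all genes, and 3.17% in this direction), Cyp2r1, Cyp2c39 and Cyp2a22, each higher with LDP. The same 3 were those whose groups did not overlap (8.33%, against 10.5% of all genes, and 5.69% in this direction). The median log2 difference was 0.02, and 0.002 for all genes.

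Cyp2r1 was at 14.6, 15.9 and 14.1 CPM with LDP and 10.8, 12.4 and 11.4 CPM without, a log2 difference of 0.36 (SE 0.0883, edgeR unadjusted p = 0.00251, adjusted p = 0.871). Cyp2c39, scarce in these males, was at 1.81, 1.33 and 2.38 CPM against 1.22, 1.24 and 1.21 CPM, a log2 difference of 0.59 (SE 0.231, edgeR unadjusted p = 0.0316, adjusted p = 0.920). Cyp2a22 was at 1.32, 1.13 and 1.62 CPM against 0.809, 0.737 and 1.12 CPM, a log2 difference of 0.61 (SE 0.242, edgeR unadjusted p = 0.0325, adjusted p = 0.920). In these 3 genes each LDP male was above each control male.

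All 4 Cyp2a genes had positive estimates in males (0.08 to 0.61) and 7 of 8 Cyp2d genes negative ones (-0.58 to -0.02), with Cyp2d12 at 0.15. Cyp2d9 was at 1332, 1423 and 1774 CPM with LDP and 1890, 1585 and 1803 CPM without, overlapping through LDP male 11 (log2 difference -0.22, SE 0.122, edgeR unadjusted p = 0.103). Cyp2e1 was at 10396, 9693 and 13243 CPM against 12614, 12804 and 12333 CPM, where again male 11 was high and the other LDP males were below all controls (log2 difference -0.18, SE 0.122, edgeR unadjusted p = 0.175).

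LDP male 11 differed from LDP males 8 and 10 in many Cyp2c genes. Cyp2c40 was at 24.0 CPM in it, and at 4.61 and 6.24 CPM in males 8 and 10. Cyp2c69 was at 10.7 CPM, against 1.38 and 2.33 CPM, and Cyp2c38 at 42.8 CPM, against 28.8 and 19.0 CPM. In the controls these genes ranged over 5.10 to 13.4, 1.58 to 6.82 and 21.2 to 29 CPM. Male 11 was thus above all controls in each of the 3 genes.

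Cyp2c67 and Cyp2c68 were likewise highest of the 6 males in male 11, at 312 and 215 CPM. Over both genes the range was 95.0 to 173 CPM in males 8 and 10 and 122 to 203 CPM in the controls. Cish and Socs2, feedback genes that growth hormone raises through STAT5, were lowest of the 6 males in male 11, at 12.2 and 22.6 CPM, against 35.5 and 61.4 CPM and 33.1 and 77.1 CPM in males 8 and 10. Between LDP and control males, 3 of the 8 growth hormone pathway genes had positive and 5 negative estimates, without an adjusted call. Jak2 alone had an unadjusted p under 0.05 in edgeR, and it was higher with LDP. The part of Cish and Socs2 in the Cyp2c values was not tested.

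Without male 11, 8 Cyp2 genes had an unadjusted p under 0.05 in males (22.2%, against 13.2% of all genes in that fit), and 1 an adjusted one (2.78%, against 0.419%). Over all genes that fit made 66 adjusted calls, and the fit with all males 1. Male 11 was named for its Cyp2c values, so the higher share without it is no independent result on the family. The Cyp2 gene called without male 11 was Cyp2c37, with a log2 difference of -0.71 (edgeR adjusted p = 0.0163). It was at 176 and 159.7 CPM in the LDP males left and 303, 268 and 253 CPM in the controls. With male 11, at 308 CPM, it was -0.36 (SE 0.261, edgeR adjusted p = 0.920). In that fit Cyp2c68, Cyp2e1, Cyp2d9, Cyp2c67, Cyp2d26 and Cyp2d40 also had negative estimates with an unadjusted p under 0.05, and Cyp2r1 a positive one; lower calls came to 19.4% of the Cyp2 genes and 5.76% of all genes. Without male 10 there were 6 (16.2%, against 6.23% of all genes), all positive, led by Cyp2b9 at 1.89 (edgeR unadjusted p = 9.46e-05, adjusted p = 0.296), a gene at no more than 1.16 CPM in any male. Without control male 5, control male 6 or LDP male 8 only Cyp2r1 was left (2.70 to 2.78%, against 2.44 to 4.73% of all genes). With all males, 8 of 12 endothelial, stellate and Kupffer markers had positive estimates and 4 negative ones, with a median of 0.09. Of the list, 3 had an unadjusted p under 0.05 in edgeR, the macrophage genes Cd5l, Timd4 and Adgre1, all lower with LDP. No marker of the list passed adjustment, and their part in the Cyp2 values was not tested.

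**Figure D4:**
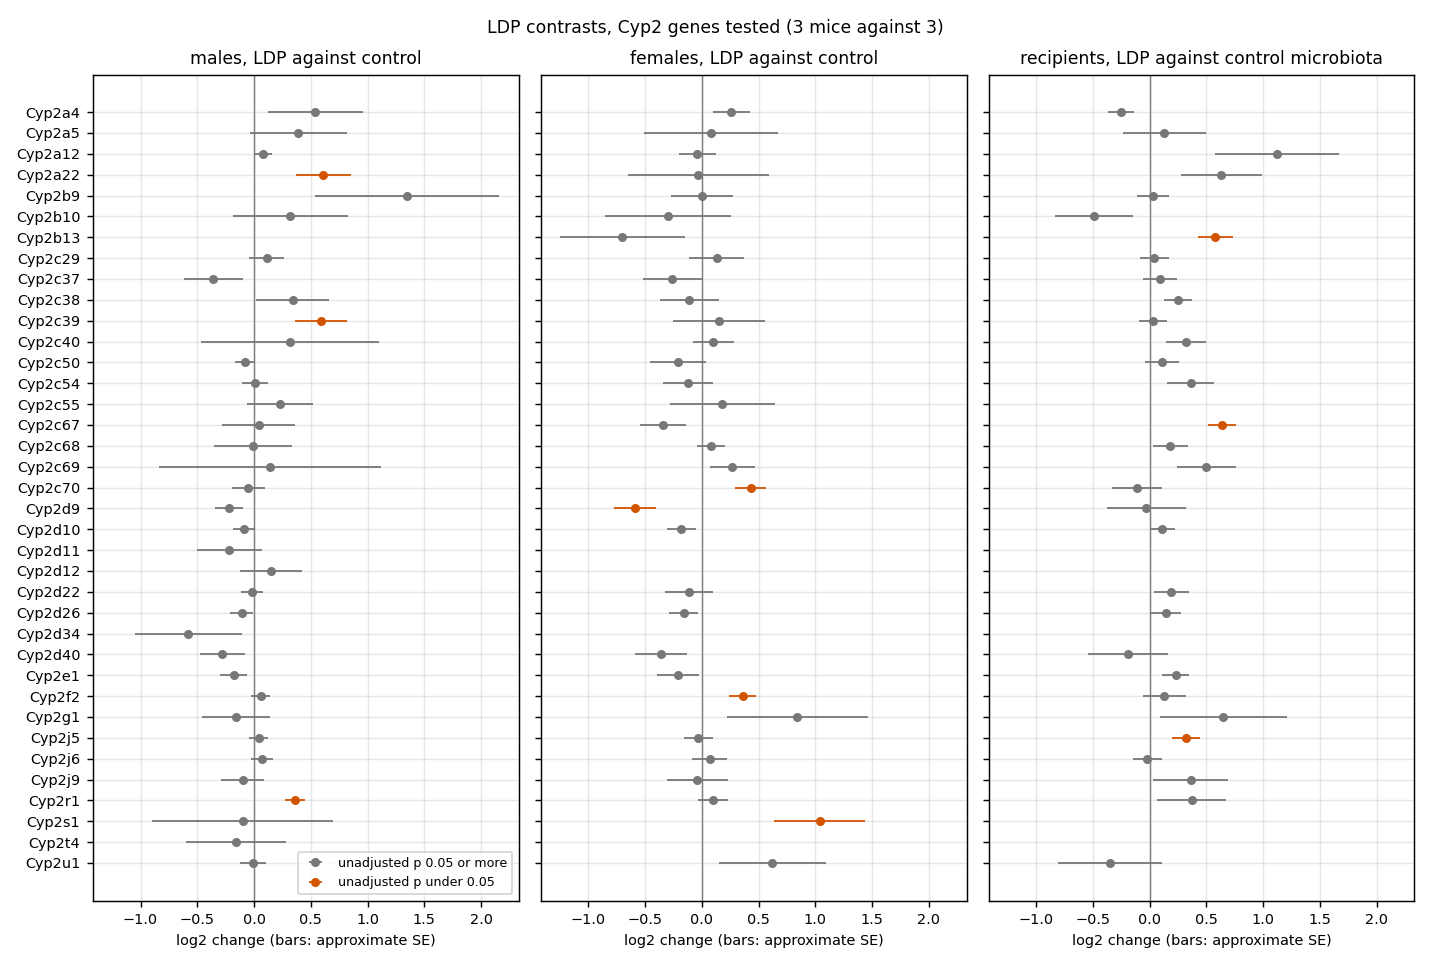
Log2 difference with approximate SE for each Cyp2 gene tested in the 3 LDP contrasts, 3 mice against 3; a missing point means the gene was too low to be tested. Orange marks an unadjusted p under 0.05, found for 3, 4 and 3 genes, and no gene is orange in more than 1 panel.

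The LDP differences were compared with each other by testing their difference. Between C57BL6J females and recipients, none of 34 Cyp2 genes differed at an adjusted p of 0.05 in edgeR (0% of all genes did), and 2 did at an unadjusted p under 0.05 (5.88%, against 5.94% of all genes). For Cyp2c67 the difference of female minus recipient effects was -0.99 (SE 0.250, edgeR unadjusted p = 0.00165, adjusted p = 0.788), from -0.34 in females and 0.64 in recipients. For Cyp2a4 it was 0.50 (SE 0.195, edgeR unadjusted p = 0.0240, adjusted p = 0.788), from 0.26 and -0.25. Between males and females no adjusted call was made among 37 genes (0% of all), and 2 genes had an unadjusted p under 0.05 (5.41%, against 2.71%). These were Cyp2c70, at -0.05 in males and 0.43 in females, with a difference of -0.49 (SE 0.205), and Cyp2f2, at 0.06 and 0.36, with -0.31 (SE 0.134).

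Spread between mice of 1 group was wide in this family. Among genes at a group mean of at least 1 CPM, the highest mouse exceeded the lowest by more than 2-fold for 7 of 30 Cyp2 genes in LDP males (23.3%, against 4.03% of all genes), 3 of 29 in control males (10.3%, against 1.12%), 10 of 31 in LDP females (32.3%, against 4.62%) and 4 of 31 in control females (12.9%, against 4.13%). In recipients it was 6 of 31 with LDP microbiota (19.4%, against 5.75%) and 9 of 31 with control microbiota (29%, against 7.18%). The widest gene was Cyp2c69 in both male groups, Cyp2g1 in LDP females, Cyp2b10, the classic CAR target, in control females, Cyp2a12 with LDP microbiota and Cyp2u1, a fatty acid hydroxylase, with control microbiota. Cyp2b10 was at 4.35, 10 and 20.4 CPM in the control females.

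**Figure D5:**
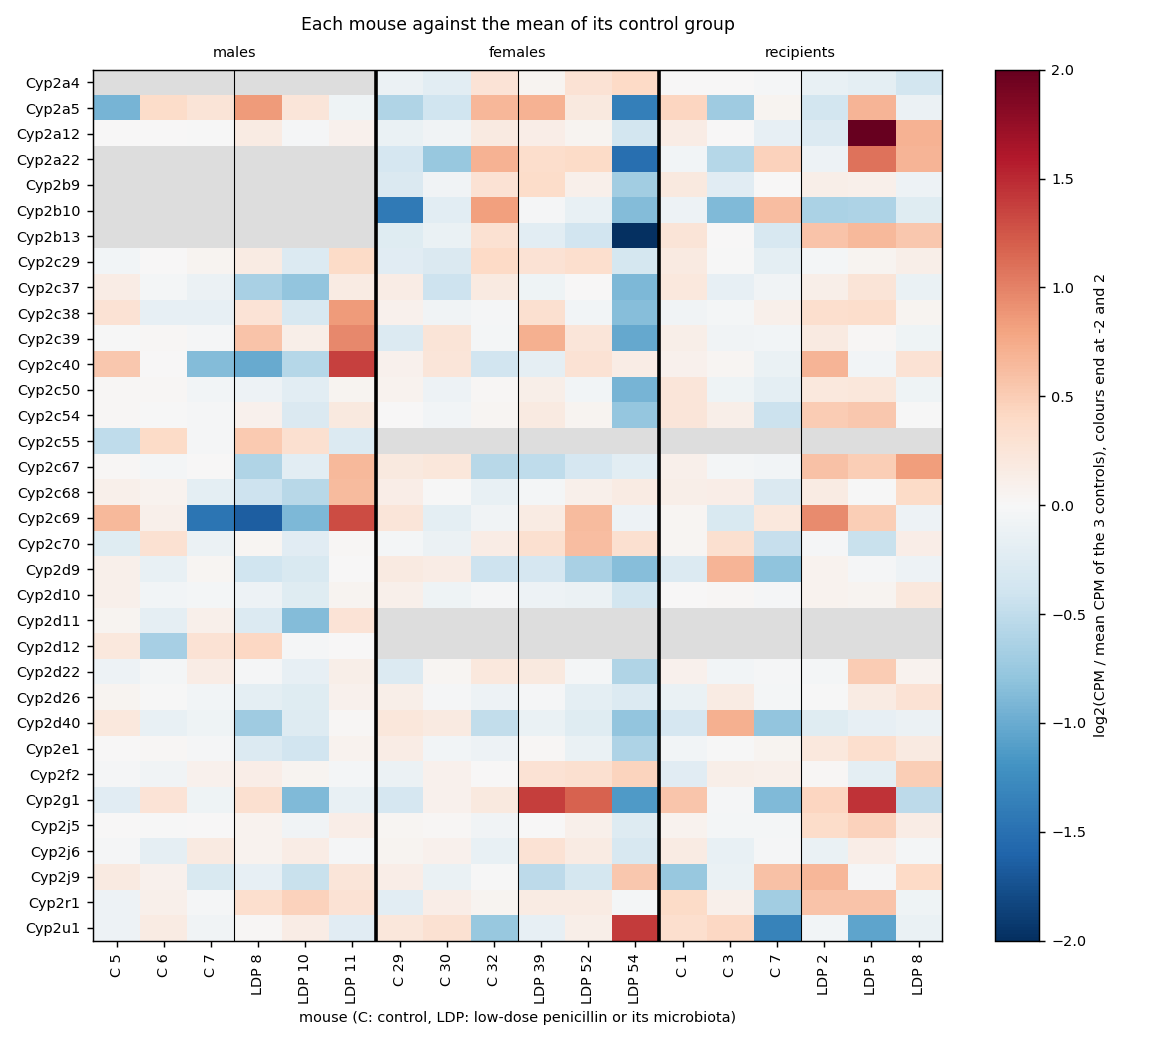
Log2 ratio of each mouse's CPM to the mean of the 3 controls of its experiment, for 34 Cyp2 genes (rows) and 18 mice (columns); grey marks a control mean under 1 CPM. LDP male 11 is red across Cyp2c38, Cyp2c39, Cyp2c40, Cyp2c67, Cyp2c68 and Cyp2c69 where LDP male 8 is mostly blue, LDP female 54 is blue in Cyp2b13, Cyp2a22, Cyp2a5 and most Cyp2c genes, and recipient 5 of LDP microbiota is darkest in Cyp2a12.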

How the data were processed

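Liver RNA of 18 mice was sequenced from TruSeq v2 libraries after RNeasy extraction, per the labels' protocols. The authors deposited unnormalised read counts by gene in separate tables of 6 males and 12 females. The submitters' processing notes list the build mm10 and the tools featureCounts 1.4.3-p1, HTSeq 0.5.3p9, DESeq and STAR 2.3.0e, with no role for each. The male table gives Ensembl IDs, matched to symbols in GENCODE M21, and the female table gives symbols. Strandedness and the treatment of reads shared by copies are not given in the sources used here.

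Each comparison was fitted over all genes with the robust quasi-likelihood test of edgeR 4.0.16 in R 4.3.3 (filterByExpr, minimum count 10 and total 15, TMM scaling), with Benjamini-Hochberg adjustment over all genes tested and a threshold of 0.05. The LDP comparisons used their own 6 libraries, and recipients against C57BL6J females all 12 female libraries, so that comparison shares its libraries with the others. The SE is derived from the F statistic and is approximate. Fits were tested on simulated data. Mice are the replicates. Since cages, litters and donors are unknown here, cage mates or littermates were treated as independent. No library was a copy of another. Alternatives were DESeq2 1.42.0, other scalings and filters, a fit that is not robust, a spread shared by 12 libraries, and leaving out each mouse. DESeq2 gave some genes no adjusted p, and shares of its calls are of all genes fitted.

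The family, the gene lists and the rule for naming genes were chosen with earlier results of these data known. Cyp2 genes with an adjusted p under 0.05, otherwise those with an unadjusted p under 0.05, and the 8 of highest level per arm are named with their values, as are up to 4 genes of each list. Genes and mice named for their spread or overlap, and the promoters shown, were chosen after values were seen. Promoters are those of the RefSeq table for GRCm38.p6.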

Additional observations from a re-analysis of the deposited data

How the results depend on the processing

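No Cyp2 estimate that passed an adjusted p of 0.05 changed sign under any alternative. Of the 12 Cyp2 genes called between recipients and C57BL6J females, 10 kept their call in every fit run, and the exceptions were Cyp2c55 and Cyp2c69, lost only when mice were left out. Cyp2c55 was not tested under the filter at a mean of 1 CPM. The count of calls in that comparison ranged from 11 to 14 over tools, scalings and filters and from 10 to 13 when mice were left out. No scaling moved the median of all genes by more than 0.1.

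Counts at an unadjusted p under 0.05 were less steady. With the spread shared by 12 libraries they were 1 in males (2.70%, against 3.47% of all genes) and 2 in females (5.88%, against 3.32%). DESeq2 gave 7 in recipients (22.6%, against 4.75% of all genes), with 1 adjusted call (Cyp2b13) among 28 over all genes, and 5 (14.7%, against 5.65%) for the difference between females and recipients, where a fit that is not robust gave 4 (11.8%, against 6.07%). When mice were left out, unadjusted calls ranged from 1 to 8 in males, 2 to 8 in females and 3 to 6 in recipients, from 1 to 5 for females minus recipients and from 0 to 3 for males minus females. Adjusted calls in males then ranged from 0 to 1. The cause was not tested, except that leaving out a mouse leaves fewer mice.

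No paired analysis was possible because the numbers in the labels name single mice and the groups compared share fewer than 2 of them. With 3 mice a group the SEs given limit what can be detected, and genes with few counts in most libraries were not tested.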

Other observations

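Cyp2 names left out for want of a partner in the other table were not all scarce. Cyp2c23 had 21992 to 32707 counts in the male libraries and Cyp2c44 had 5033 to 11229 counts in the female libraries, and Cyp2d13 had 4125 to 11334 counts in the female libraries. Cyp2j7 had 0 to 3 counts in the male libraries.

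Close promoters went with like levels for some pairs of genes and with unlike levels for others. Besides the pairs shown in the report, Cyp2d9 and Cyp2d11 were identical at 89.0% of aligned promoter columns, while in males Cyp2d9 was at 1332 to 1890 CPM and Cyp2d11 at 0.657 to 1.45 CPM. Cyp2d9 and Cyp2d10 were identical at 84.5% and stood at 1332 to 1890 and 505 to 644 CPM. Cyp2c37 and Cyp2c50, at 88.3%, were both abundant in every arm.

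In LDP females 8 of 12 female-biased genes outside the family had positive estimates, with a median log2 difference of 0.25, and in males 6 of 7 tested, with a median of 0.13, none with an adjusted call in edgeR. In females A1bg (1.17) and Fmo2 (0.45) had positive estimates with an unadjusted p under 0.05, and Sult2a1 (-2.26) a negative one. Cyp7a1, the rate-limiting enzyme of bile acid synthesis, was at 357, 406 and 251 CPM in LDP males and 169, 167 and 286 CPM in control males, which overlapped.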
